A study of Bos taurus with 38 samples.

Results

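The genes of 3 myogenic regulatory factors were followed across 38 newborn calves: *MYOD1* (ENSBTAG00000002216), *MYOG* (ENSBTAG00000006030) and *MYF6* (ENSBTAG00000014003). They were taken by name and Ensembl identifier as 3 of the 27607 genes in the count table. All 3 of 3 passed the filter on low counts and were among the 12964 genes tested. The study asked how extra selenium (Se) given to the dam in one trimester or another of pregnancy changes gene expression in the muscle of the newborn calf. Biopsies of the *Longissimus dorsi*, the long muscle of the back, were taken between 12 and 48 h after birth, and poly-A RNA of each calf was sequenced as 1 library.

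The dams were Angus and Angus-cross beef cows, which the study allotted to treatments in randomized blocks; the block of a calf is not in the labels and could not be modelled. CTR calves (n = 10, 4 females and 6 males) came from dams that received no Se-yeast. Dams of TR1 (n = 9, 2 females and 7 males), TR2 (n = 10, 3 females and 7 males) and TR3 calves (n = 9, 5 females and 4 males) were given 3 Se-yeast boluses a week for 13 weeks, which supplied 105 mg Se per week, in the first, the second or the third trimester. The dams of all groups, CTR included, also had access to a mineral supplement with 120 mg/kg Se from sodium selenite, so CTR was not a selenium-free group. The dams were 5 to 9 years old.

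The myogenic regulatory factors are basic helix-loop-helix transcription factors that pair with E-proteins and bind E-box motifs in the control regions of muscle genes. *MYOD1* and *MYF5* act early and commit precursor cells to the muscle lineage, *MYOG* (myogenin) drives terminal differentiation and fusion of myoblasts, and *MYF6* (MRF4) is the member that predominates in mature fibres of adult muscle. In RefSeq (assembly ARS-UCD2.0) *MYOD1* lies on chromosome 15 and *MYOG* on chromosome 16, whereas *MYF6* lies next to *MYF5* on chromosome 5. *MYF5*, the fourth gene of the family, is given beside the 3 genes for comparison.

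The libraries held between 12921223 and 17471666 counted reads, and the factors that scale library sizes (TMM) lay between 0.887 and 1.35. Muscle fibre markers were present in every calf: *ACTA1*, the skeletal muscle actin, was at 8701 CPM (counts scaled to the size of the library) or more, and none of the 38 calves was at 0 for *PAX7*, the marker of satellite cells, the stem cells of muscle. One library stood apart. TR1 calf A2052, a female, had the lowest *ACTA1* and the lowest summed level of 43 contractile and metabolic fibre genes (68221 CPM, against at least 116643 CPM in the other calves), and its values are given separately below. In bulk tissue fewer cells of a type and less RNA per cell cannot be told apart.

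*MYOD1* was measured at 29.0 CPM in the lowest CTR calf (A2034), 44.3 CPM in the median calf and 104 CPM in the highest (A2091), with a mean of 51.6 ± 23.5 (SD, n = 10). In TR1 it ran from 2.79 (A2052) through a median of 40.4 to 101 CPM (A2057), with a mean of 52.9 ± 31.3 (SD, n = 9), and without A2052 the mean was 59.1 ± 26.8 (SD, n = 8). The TR1 calves fell on both sides of the CTR median, 4 above and 5 below. In TR2 *MYOD1* ran from 36.8 (A2090) through 67.6 to 98.4 CPM (A2083), with a mean of 65.8 ± 20.6 (SD, n = 10). In TR3 it ran from 20.6 (A2033) through 80.7 to 97.9 CPM (A2065), with a mean of 70.2 ± 25.7 (SD, n = 9). Most TR3 calves were high, 8 of 9 above the CTR median, but the highest calf of all was a CTR calf and the groups overlapped in every comparison.

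*MYOG* ran from 31.9 (A2088) through 61.4 to 86.3 CPM (A2091) in CTR, with a mean of 58.4 ± 16.2 (SD, n = 10). In TR1 the lowest, median and highest calves were at 3.21 (A2052), 49.4 and 79.6 CPM (A2092), with a mean of 54.2 ± 24.0 (SD, n = 9), or 60.6 ± 15.5 (SD, n = 8) without A2052. The next lowest TR1 calf (A2058) was at 45.0 CPM. In TR2 *MYOG* ran from 34.2 (A2099) through 67.4 to 98.1 CPM (A2100), with a mean of 66.7 ± 18.4 (SD, n = 10). In TR3 it ran from 51.9 (A2020) through 76.4 to 102 CPM (A2102), with a mean of 77.4 ± 16.4 (SD, n = 9). The TR3 calves were the highest group on the mean and the median, with 8 of 9 above the CTR median and all 9 above the TR1 median, and the ranges still overlapped.

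*MYF6* had a different order of groups. In CTR it ran from 67.4 (A2035) through 84.3 to 195 CPM (A2088), with a mean of 97.8 ± 36.6 (SD, n = 10), and in TR1 from 51.6 (A2029) through 80.7 to 123 CPM (A2067), with a mean of 80.4 ± 20.0 (SD, n = 9). TR2 held the highest calves, from 74.0 (A2084) through 106 to 235 CPM (A2100), with a mean of 121 ± 50.4 (SD, n = 10). TR3 was again low, from 64.8 (A2073) through 80.2 to 115 CPM (A2020), with a mean of 83.8 ± 16.2 (SD, n = 9). Thus 9 of 10 TR2 calves lay above the TR1 median and 8 of 9 TR3 calves below the TR2 median. The order of the means was TR2, CTR, TR3, TR1 for *MYF6*, against TR3, TR2, TR1, CTR for *MYOD1* and TR3, TR2, CTR, TR1 for *MYOG*. Neighbours in each of these orders differed by less than the SD of the calves in either group. Values of different genes are not compared with each other here, because CPM is not scaled to transcript length.

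*MYF5* was low in every group, with a mean of 3.76 ± 0.743 CPM (SD, n = 10) for CTR and 3.65 ± 1.45 CPM (SD, n = 9) for TR1. The TR2 mean was 2.74 ± 0.748 CPM (SD, n = 10) and the TR3 mean 3.30 ± 1.33 CPM (SD, n = 9). TR2 was the lowest group, with 8 of 10 calves below the CTR median and 10 of 10 below the TR1 median.

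**Figure D1:**
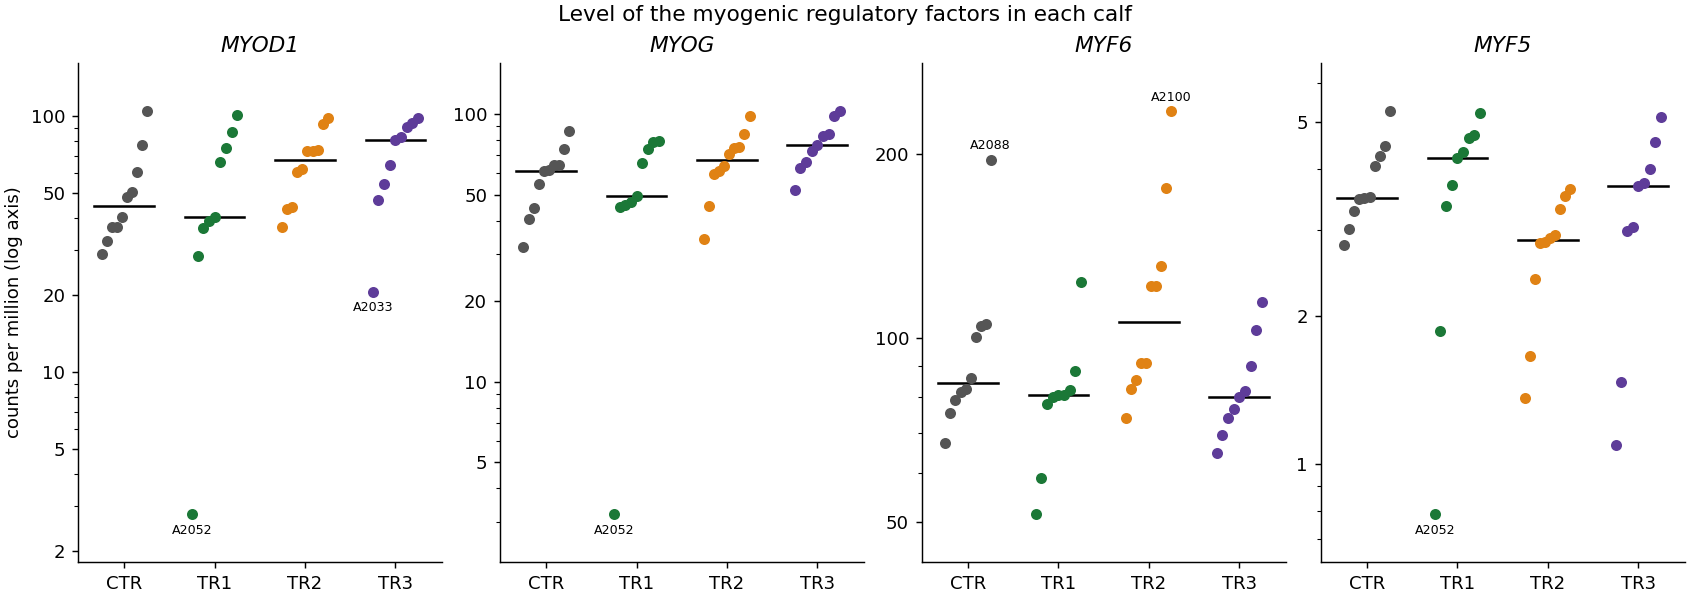
Level of *MYOD1*, *MYOG*, *MYF6* and *MYF5* in CPM on a log axis (the axes differ between panels). Each point is 1 calf, ordered by level within its group, and the black line is the group median. The TR3 medians of *MYOD1* (80.7) and *MYOG* (76.4) lie above those of CTR (44.3 and 61.4), TR1 calf A2052 lies far below all others for *MYOD1* and *MYOG*, and the 2 highest *MYF6* calves are TR2 calf A2100 and CTR calf A2088.

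Differences between groups were tested in 1 model over all genes and calves, with dam age and calf sex as covariates (edgeR, quasi-likelihood test, p-values adjusted by the Benjamini-Hochberg method over the 12964 genes). The 3 comparisons with CTR share the CTR calves. For *MYOD1* the log2 fold change vs. CTR was 0.12 (SE 0.35) for TR1, 0.36 (SE 0.33) for TR2 and 0.55 (SE 0.35) for TR3. The last value is a 1.46-fold higher level with a 95% interval from 0.898-fold to 2.39-fold, and its p-value was 0.122 before adjustment and 1.00 after it (edgeR). *MYOG* gave log2 fold changes of -0.11 (SE 0.28), 0.18 (SE 0.27) and 0.45 (SE 0.28), the last being 1.36-fold (95% interval 0.914 to 2.03, edgeR p = 0.125, adjusted p = 1.00). *MYF6* gave -0.34 (SE 0.19), 0.28 (SE 0.18) and -0.23 (SE 0.20), none of which passed the test.

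None of the 3 genes was called in any comparison with CTR at an adjusted p of at most 0.05, where the share of all genes called was 0% in each of the 3 comparisons. At an unadjusted p under 0.05 the count was also 0 of 9 tests, beside 2.55% of all genes for TR1, 8.34% for TR2 and 1.35% for TR3. DESeq2 likewise gave 0 calls for the 3 genes at both thresholds vs. CTR. The intervals allow differences of moderate size: for *MYOD1* in TR3 vs. CTR any value from -0.16 to 1.26 on the log2 scale is within the 95% interval. Single calves, picked after seeing the data, moved some of these tests across the unadjusted threshold. Without TR3 calf A2033, *MYOD1* in TR3 vs. CTR was 0.70 (SE 0.34, edgeR p = 0.0461). Without TR2 calf A2100, *MYF6* in TR1 vs. CTR was -0.35 (SE 0.17, edgeR p = 0.0425). Without CTR calf A2088, *MYF6* in TR2 vs. CTR was 0.45 (SE 0.17, edgeR p = 0.0119). *MYOG* in TR3 vs. CTR was 0.36 without A2052 (SE 0.18, edgeR p = 0.0514), which did not cross the threshold. With any calf left out, none of the 9 tests passed after adjustment.

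Between the supplemented groups, the smallest p-values of the 3 genes in the edgeR model were those of *MYF6*. It was 1.54-fold higher in TR2 than in TR1 (log2 0.62, SE 0.19, 95% interval 0.23 to 1.01, edgeR p = 0.00253, adjusted p = 0.791). It was lower in TR3 than in TR2 (log2 -0.51, SE 0.20, 95% interval -0.92 to -0.10, edgeR p = 0.0170, adjusted p = 0.470). Without TR2 calf A2100, the highest of all, these values were 0.47 and -0.40, and *MYF6* in TR2 vs. CTR was 0.12 in place of 0.28. The test of any difference among the 4 groups gave p = 0.0149 for *MYF6* (edgeR, adjusted p = 0.817), 0.271 for *MYOG* and 0.396 for *MYOD1*, and 6.09% of all genes had an unadjusted p under 0.05 in this test. *MYOG* was higher in TR3 than in TR1 by 0.56 on the log2 scale (SE 0.31, edgeR p = 0.0773, adjusted p = 0.865), and this value was 0.26 (SE 0.20) without A2052. *MYOD1* gave 0.43 (SE 0.38) in the same comparison and 0.10 (SE 0.30) without A2052. At an unadjusted p under 0.05, 1 of 3 genes was called in TR2 vs. TR1 and 1 of 3 in TR3 vs. TR2, beside 6.15% and 9.46% of all genes, and none in TR3 vs. TR1, beside 5.85%. After adjustment 0 of 3 were called in each, and the share of all genes was again 0%.

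**Figure D2:**
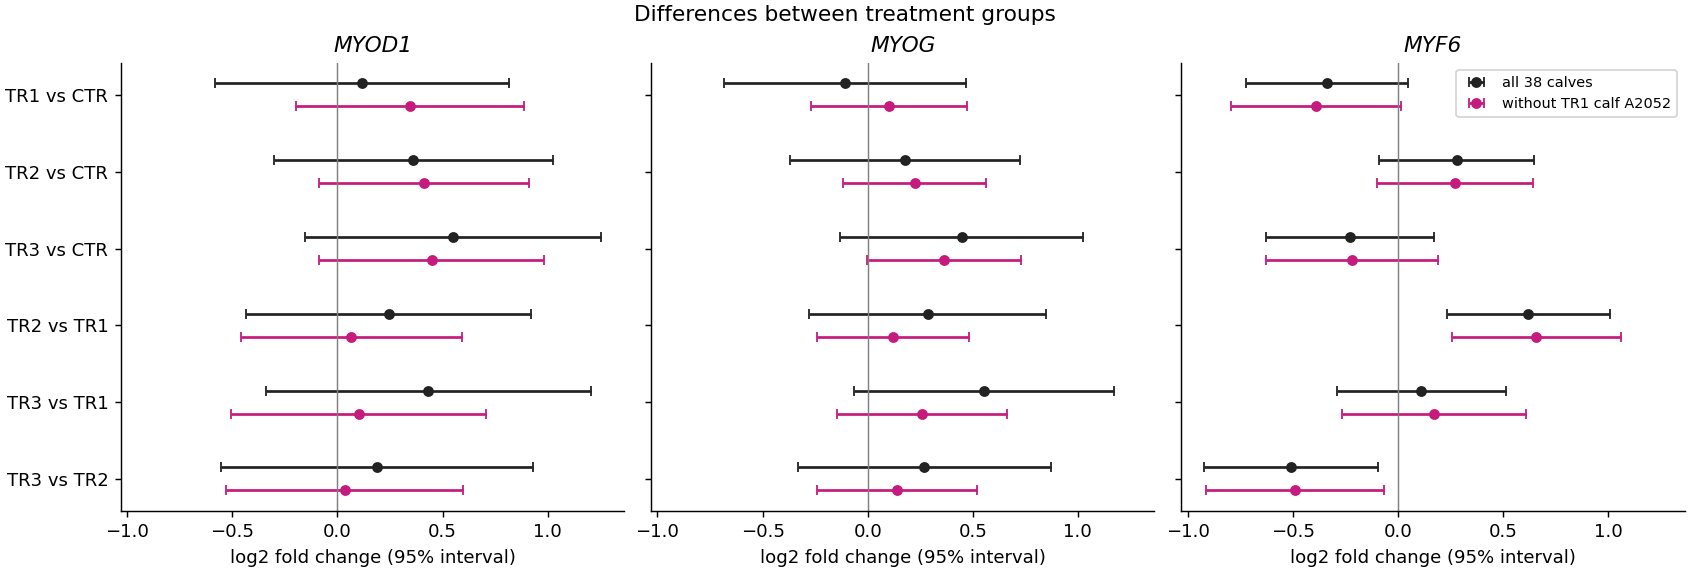
Log2 fold change with its 95% interval (edgeR) for each of 6 comparisons between groups, with all 38 calves (black) and without TR1 calf A2052 (pink). The intervals of *MYOD1* and *MYOG* cross 0 in every comparison with and without that calf, and those of *MYF6* stay clear of 0 for TR2 vs. TR1 and TR3 vs. TR2.

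A simpler test of 1 gene at a time, the exact permutation test of mean log2 CPM between groups without covariates (two-sided), was run 18 times and gave p under 0.05 in 4. *MYOG* was higher in TR3 than in CTR by 0.43 (exact permutation p = 0.0231) and higher in TR3 than in TR1 by 0.82 (exact permutation p = 0.0230). Without A2052 the latter difference was 0.36 (exact permutation p = 0.0460). *MYF6* was higher in TR2 than in TR1 by 0.53 (exact permutation p = 0.0160) and lower in TR3 than in TR2, at -0.46 (exact permutation p = 0.0261). These p-values are not adjusted for the 18 tests. *MYF5* was lower in TR2 than in CTR by the same test (-0.47, exact permutation p = 0.00524), while the edgeR model gave -0.49 (SE 0.24, p = 0.0522, adjusted p = 0.589).

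As a description, differences were also put on a standardized scale, in which the difference between group means of variance-stabilized values is divided by the SD of such differences over genes, and were counted at a limit of 1.5 in size. The study tested variance-stabilized values by another method, with an adjusted p-value as well, and that procedure was not repeated here. The standardized scale compares a gene with other genes and not with the spread between calves, so it is given with no test. On it *MYOD1* was at -1.46 for TR1, 2.09 for TR2 and 3.43 for TR3. *MYOG* was at -2.15, 1.02 and 3.43, and *MYF6* at -1.58, 1.50 and -1.44 (its TR2 value lay just under the limit). Past the limit in size were thus 5 of the 9 values, beside 10.6% of all genes for TR1, 10.4% for TR2 and 10.9% for TR3. The 3 genes were chosen with earlier results of these data known, so 5 of 9 beside these shares is not independent evidence.

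The TR1 values on this scale turned on a single calf. Without A2052, *MYOD1* went from -1.46 to 1.29 and *MYOG* from -2.15 to 0.45, whereas the edgeR fold change of *MYOD1* in TR1 was positive with that calf as well (0.12, and 0.35 without it). *MYF6* in TR1 was at -2.12 without A2052 and at -0.84 without CTR calf A2088. The TR3 values of *MYOD1* and *MYOG* did not turn with any calf left out: they ranged from 2.75 to 4.58 and from 2.59 to 3.77.

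**Figure D3:**
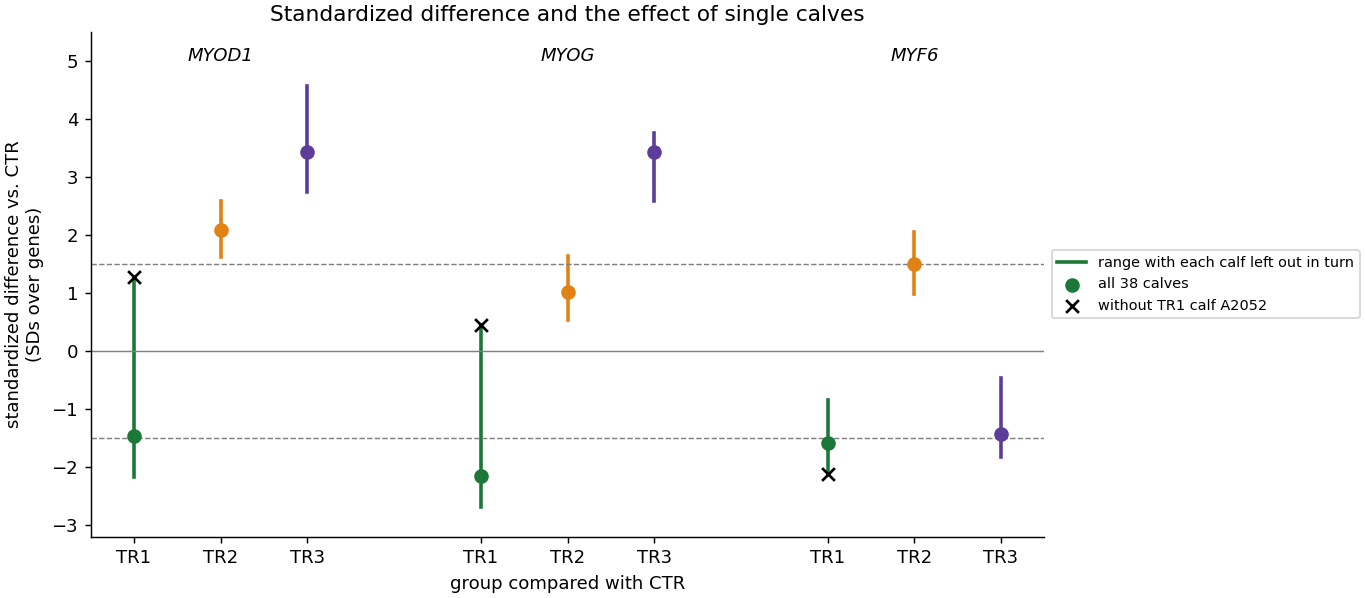
Standardized difference vs. CTR of *MYOD1*, *MYOG* and *MYF6* in TR1, TR2 and TR3, in SDs over genes. Points show all 38 calves, vertical lines the range when each calf is left out in turn, crosses the TR1 value without calf A2052, and dashed lines the limit of 1.5. In TR1 the lines of *MYOD1* and *MYOG* cross 0 (up to 1.29 and 0.45), and in TR3 they stay between 2.59 and 4.58.

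TR1 calf A2052 was the lowest of 38 calves for *MYOD1*, *MYOG* and *MYF5* at once. It had 53 reads of *MYOD1* (2.79 CPM, 21.7-fold below the median of the other 37 calves) and 61 reads of *MYOG* (3.21 CPM, 20.1-fold below). Among the 11677 genes with a mean of at least 1 CPM, 22 lay further below the other calves than *MYOD1* and 24 further than *MYOG*. *MYF5* had 15 reads (0.790 CPM, 4.41-fold below). *MYF6* had 1676 reads (88.3 CPM), 1.07 times the median of the other calves. After TMM scaling the factor of mature fibres was thus near its usual level in the calf with the least of the factors of commitment and differentiation. This depends on the scaling, because A2052 had the largest TMM factor of all calves (1.35). By library size alone its *MYF6* level would be higher.

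Other muscle genes of A2052, named here after their values were seen, stood apart as well. Of the 43 contractile and metabolic fibre genes 25 were lower than in any other calf, among them *ACTC1*, the cardiac actin of developing muscle (4.95 CPM, lowest other calf 43.7). *MSTN* (myostatin), an inhibitor of muscle growth, was at 0.158 CPM, from 3 reads, against at least 1.83 in the others. Higher than in any other calf were *FBXO32* (159 CPM, at most 92.6 in the others) and *TRIM63* (1148 CPM, at most 225), the ubiquitin ligases atrogin-1 and MuRF1 of muscle protein breakdown, *RAPSN* (278 CPM, at most 107), which clusters acetylcholine receptors, and *HDAC4* (45.2 CPM, at most 39.5), a repressor of MEF2 factors. *PAX7* was the lowest of all at 0.685 CPM, while *CDH15* (M-cadherin), another satellite cell gene, was the second highest at 52.6 CPM. The summed level of 8 fibroblast markers was the lowest of all (250 CPM, 8 of 8 below the median of the other calves), and *VWF*, the marker of endothelium, was the highest (69.5 CPM). What part these differences play in the level of *MYOD1* and *MYOG* was not tested.

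TR3 calf A2033 was low in *MYOD1* but not in *MYOG*, at 20.6 CPM and 65.9 CPM, and its *MYF5* was at 1.47 CPM. Its log2 ratio of *MYOD1* to *MYOG* was -1.68, the lowest of all calves, and the highest was 1.10 in TR2 calf A2099 (*MYOD1* 73.2, *MYOG* 34.2 CPM). A2052 had a ratio of -0.20, close to the median of all calves (-0.16), because both genes were low together. These ratios depend on transcript lengths, so only their differences between calves carry information. The log2 ratio of *MYOG* to *MYF6* had a median of -0.73 for CTR, -0.71 for TR1, -0.96 for TR2 and 0.11 for TR3, and the groups overlapped (TR2 from -1.53 to 0.19, TR3 from -1.14 to 0.41).

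Calves of a group differed more for these genes than for most genes of like level. The biological coefficient of variation in the edgeR model, the relative spread between calves beyond counting error, was 0.491 for *MYOD1* and 0.409 for *MYOG*, against a median of 0.193 in those genes (97.0 and 94.4 percent of them varied less). It was 0.284 for *MYF6* and 0.348 for *MYF5* (81.8 and 73.4 percent). Without A2052 the values were 0.373 for *MYOD1* and 0.261 for *MYOG*, against a median of 0.180 in like genes (95.1 and 83.1 percent varied less), and 0.286 for *MYF6* and 0.295 for *MYF5* (86.1 and 62.8 percent).

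*MYOD1* and *MYOG* were high and low in the same calves. Over the 38 calves their log2 CPM had a Pearson r of 0.85 and a Spearman rho of 0.72 (permutation p = 1e-05 for both, the smallest that 100000 permutations give, 3e-05 adjusted over the 3 pairs of genes). Without A2052 r was 0.60 (permutation p = 8e-05, adjusted 0.00024) and rho 0.70, and without A2052 and A2033, the calves farthest from the *MYOD1* median, r was 0.67. Within groups r was 0.79 for CTR (n = 10), 0.95 for TR1 (n = 9, or 0.66 without A2052), 0.32 for TR2 (n = 10) and 0.56 for TR3 (n = 9). It was 0.97 in the 14 females, A2052 included, and 0.49 in the 24 males. The relation was thus positive in each group and each sex, with a size that depended on A2052.

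*MYF6* did not go with either. Its r was -0.13 with *MYOD1* (rho -0.26, adjusted permutation p = 0.626 for r and 0.169 for rho) and -0.07 with *MYOG* (rho -0.23, adjusted permutation p = 0.653 and 0.169). Without the 2 calves farthest from the median of the first gene they were -0.24 and 0.0020. Scaled by library size alone instead of TMM, *MYF6* and *MYOD1* had an r of -0.33 (adjusted permutation p = 0.0767) and a rho of -0.40 (adjusted permutation p = 0.0201). Within groups *MYF6* and *MYOD1* had an r of -0.36, -0.29, -0.32 and -0.25 in CTR, TR1, TR2 and TR3. With *MYF5*, a second set of 3 pairs, *MYOD1* had an r of 0.45 (adjusted permutation p = 0.0294, rho 0.11) and *MYOG* of 0.39 (adjusted permutation p = 0.0487, rho 0.03). Both rested on A2052, without which they were 0.11 and -0.13.

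**Figure D4:**
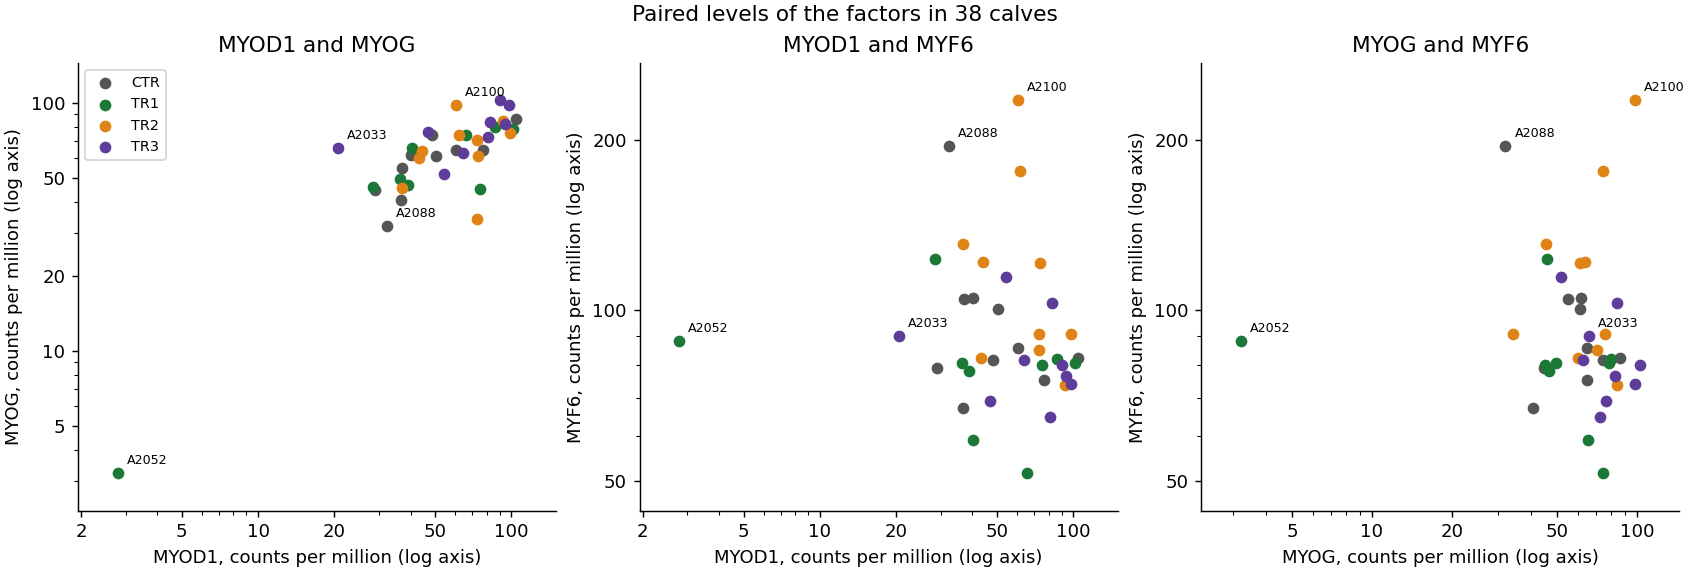
Each point is 1 of 38 calves, coloured by group, with both axes in CPM on a log scale. *MYOD1* and *MYOG* lie along a rising line (r = 0.85, or 0.60 without the isolated point of calf A2052), while *MYF6* shows no line with either (r = -0.13 and -0.07).

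The genes most like each factor across calves were found by Pearson r of log2 CPM after group, dam age and sex were removed, among 11676 other genes, as a description with no p. Only genes with a symbol could be named. A symbol was known only where the study had called the gene or listed it as a regulator in these calves. *MYOG* ranked first for *MYOD1* (r = 0.84, or 0.56 and rank 47 without A2052). Next among genes with a symbol came *SLC16A3*, a lactate transporter (r = 0.83), *PGAM2*, the muscle phosphoglycerate mutase of glycolysis (0.83), *AHDC1* (0.82) and *CARNS1*, carnosine synthase (0.80). The most opposite were *GABARAPL1*, an autophagy gene (-0.81), *TNS2*, a tensin of focal adhesions (-0.80), and *EIF4E3*, a cap-binding protein (-0.80). Without A2052 these 7 values shrank to between 0.51 and 0.58 on the positive side and between -0.62 and -0.45 on the negative side.

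For *MYOG* the nearest genes with a symbol were *MYOD1* (0.84), *C3H1orf94* (0.84), *SERTAD1*, a regulator of cell cycle transcription (0.83), *MTERF2*, a mitochondrial transcription factor (0.82), and *ARF2* (0.82). *SERTAD1* kept an r of 0.82 without A2052, and the others were between 0.36 and 0.56. The most opposite with a symbol were *ARMC2* (-0.83), *PSME4*, a proteasome activator (-0.82), and *ARID5B* (-0.81), at -0.40, -0.38 and -0.58 without that calf. For *MYF6* the nearest with a symbol were *HSPB8*, a small heat shock protein (0.73), *ZNF774* (0.72), *OTUD1*, a deubiquitinase (0.71), *FLNC*, filamin C of the Z-disc (0.69), and *XIRP1*, the actin-binding Xin protein (0.69). The most opposite with a symbol were *MKKS* (-0.62), *MYLK3*, a myosin light chain kinase (-0.60), and *TECRL* (-0.60). Without A2052 the *MYF6* values were between 0.69 and 0.77 for the nearest and between -0.67 and -0.59 for the opposite genes. That calf was near the median for *MYF6* (88.3 CPM), so leaving it out could change little. The calves highest in *MYF6*, A2100 and A2088, were not left out of these correlations.

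The 43 contractile and metabolic fibre genes, many of them textbook targets of the family, had a median residual r of 0.49 with *MYOD1*, 0.37 with *MYOG* and 0.03 with *MYF6*, beside medians of -0.01, -0.00 and -0.01 over all genes. They are the 43 of 63 listed genes that the study had called or listed as regulators in these calves. The contrast with all genes is therefore not independent evidence. Without A2052 the medians were 0.20, 0.01 and 0.13. Some genes are given for the calves without A2052, named after their values were seen as the highest or lowest for *MYOD1* or *MYF6*. Values chosen as extremes for a factor tend to be smaller for another, so they cannot show that the factors differed. With *MYOD1* the highest were *ENO3*, the muscle enolase (0.62), *MYBPC2*, the fast myosin-binding protein C (0.58), *PGAM2* (0.58) and *MYH1*, a fast myosin (0.53), and the lowest were *LMOD2*, an actin nucleator (-0.64), and *MYOZ2* (-0.57), a Z-disc protein of slow fibres. With *MYOG* these were 0.22, 0.10, 0.27 and 0.15, and -0.55 and -0.21. With *MYF6* the highest were *XIRP1* (0.69), *KLHL40*, which stabilizes thin filament proteins (0.67), and the embryonic myosin *MYH3* (0.52), and the lowest *ATP2A2*, the slow calcium pump (-0.48), and *MB*, myoglobin (-0.40). In the 5 calves lowest in *MYH1* (615 to 1274 CPM), *MYOD1* was at 2.79 (A2052), 20.6 (A2033), 29.0 (A2034), 36.8 (A2035) and 40.4 CPM (A2040). Each lay below the CTR median of 44.3, and 14 of all 38 calves did. *MYH1* was named above for its r with *MYOD1*, so these values restate that correlation.

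**Figure D5:**
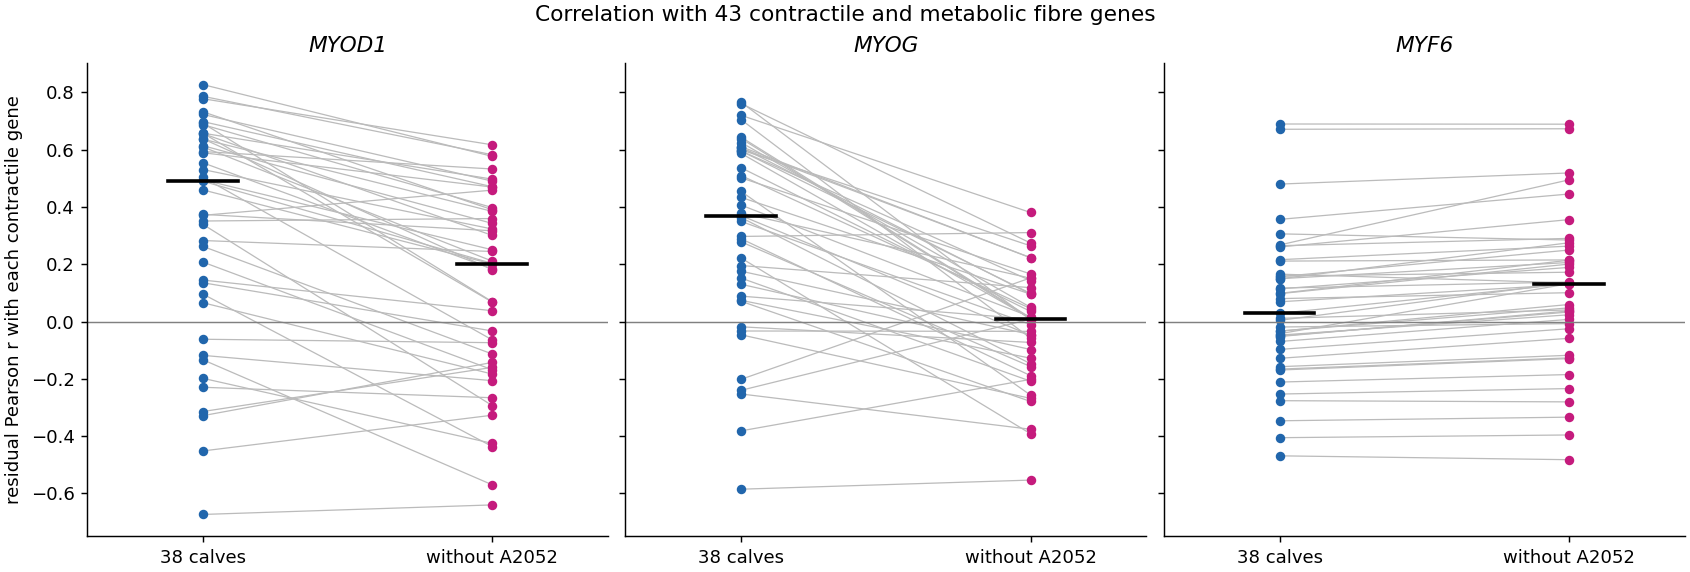
Pearson r of *MYOD1*, *MYOG* and *MYF6* with each of 43 contractile and metabolic fibre genes, after group, dam age and sex were removed, with all 38 calves (blue) and without TR1 calf A2052 (pink). Grey lines join the same gene and black bars are medians, which go from 0.49 to 0.20 for *MYOD1*, from 0.37 to 0.01 for *MYOG* and from 0.03 to 0.13 for *MYF6*.

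Partners, inhibitors and targets of the factors were described from 8 lists of 185 symbols, of which 104 could be found and were tested. Identifiers were paired with symbols only through tables of genes that the study had called or listed as regulators in these calves, so the counts below are not independent evidence of a direction. None of the 104 passed at an adjusted p of at most 0.05 in TR1, TR2 or TR3 vs. CTR or in TR3 vs. TR1 (edgeR). At an unadjusted p under 0.05, 1 was higher and 0 lower in TR1 vs. CTR (1.7% and 0.856% of all genes), 11 higher and 6 lower in TR2 vs. CTR (5.03% and 3.31%), 4 higher and 0 lower in TR3 vs. CTR (0.771% and 0.579%), and 5 higher and 4 lower in TR3 vs. TR1 (1.77% and 4.08%). The median log2 fold change over the lists was -0.11, -0.04, 0.04 and 0.19 in these comparisons, beside 0.00, 0.01, -0.01 and -0.01 over all genes. Without A2052 the counts were 0 higher and 0 lower for TR1 vs. CTR, 11 and 8 for TR2, 3 and 0 for TR3, and 3 and 0 for TR3 vs. TR1, and the medians over the lists were -0.05, -0.02, -0.00 and 0.05.

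Of the E-proteins, the partners that the factors need to bind DNA, 1 could be found. *TCF4* was at 7.77 ± 1.63 CPM in TR3 (SD, n = 9) and 6.55 ± 0.649 CPM in CTR (SD, n = 10), a log2 difference of 0.34 (SE 0.16, edgeR, adjusted p = 1.00), with 6 of 9 TR3 calves above the CTR median. Of the 8 inhibitors of helix-loop-helix factors none had an unadjusted p under 0.05 in any of the 4 comparisons. Without A2052, 1 of 8 was higher at that threshold in TR2 vs. CTR and 1 of 8 in TR3 vs. CTR. Among 17 cofactors *HDAC5*, a deacetylase that holds MEF2 factors in check, was higher by 0.32 in both TR1 and TR2 vs. CTR (SE 0.14 and 0.13, edgeR p = 0.0250 and 0.0179, adjusted 1.00 and 0.550). Without A2052 its TR1 value was 0.19 (SE 0.12). The homeobox gene *PITX3* was higher in TR2 (22.7 ± 31.9 against 7.34 ± 2.58 CPM, SD, n = 10 each), although only 5 of 10 TR2 calves exceeded the CTR median.

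In TR2 vs. CTR 2 of 13 satellite cell genes were higher and 2 lower at an unadjusted p under 0.05. The shares of all genes were 5.03% and 3.31%. In TR3 vs. CTR 2 of 13 were higher, beside 0.771% of all genes. Without A2052 the counts were 2 higher and 3 lower for TR2, and 1 higher for TR3. *SDC4* (syndecan-4), a surface proteoglycan of satellite cells, was at 20.1 ± 22.9 CPM in TR2 and 7.83 ± 3.99 in CTR (SD, n = 10 each, log2 1.27, SE 0.47), and the homeobox gene *BARX2* at 2.40 ± 0.977 and 3.60 ± 1.68 CPM (log2 -0.61, SE 0.24). In TR3 the Notch receptor gene *NOTCH1* was above the CTR median in 9 of 9 calves (21.6 ± 1.42 against 18.4 ± 2.38 CPM, log2 0.20, SE 0.10), and its ligand *DLL1* in 6 of 9 (log2 0.28, SE 0.13). *CDKN1A* and *CDKN1C*, inhibitors of the cell cycle at differentiation, had log2 differences of 1.14 (SE 0.52) and 0.34 (SE 0.16) in TR2 vs. CTR, with 5 and 8 of 10 TR2 calves above the CTR median. All of these had adjusted p-values of at least 0.545 (edgeR).

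Among 5 genes of the neuromuscular synapse, *CHRNE*, the adult subunit of the acetylcholine receptor, was lower in TR2 (19.1 ± 10.8 against 29.8 ± 13.6 CPM in CTR, SD, n = 10 each, log2 -0.68, SE 0.31). In TR3 vs. TR1 *RAPSN* was lower (log2 -0.71, SE 0.23, 0 of 9 above the TR1 median) and *MUSK*, the kinase that organizes the synapse, was higher (log2 0.95, SE 0.43, 7 of 9 above). The *RAPSN* level of A2052 (278 CPM) is part of that TR1 group, and without that calf its value was -0.16 (SE 0.17), while *MUSK* was at 1.24 (SE 0.48). Contractile genes had a negative fold change for 37 of 43 in TR1 vs. CTR, beside 49.6% of all genes, and a positive one for 33 of 43 in TR3 vs. TR1, beside 47.6%. Without A2052, which had the lowest level of 25 of these genes, the counts were 33 of 43 (53.2% of all genes) and 29 of 43 (49.6%), and the medians went from -0.18 to -0.07 and from 0.26 to 0.06 on the log2 scale. In TR2 vs. CTR 30 of 43 were also negative (48.7% of all genes), or 27 of 43 without A2052 (48.9%). In TR3 vs. CTR 26 of 43 were positive (47.2%), but 17 of 43 without that calf (47.0%). In TR3 vs. TR1 only *STAC3*, needed for coupling of excitation to contraction, had an unadjusted p under 0.05 (567 ± 31.6 against 459 ± 124 CPM, SD, n = 9 each, 9 of 9 above the TR1 median). Its log2 difference was 0.34 (SE 0.15), and without A2052 it was 0.15 (SE 0.11). In TR2 vs. CTR *XIRP1* (344 ± 479 against 94.8 ± 56.5 CPM, SD, n = 10 each, log2 1.79, SE 0.48) and *KLHL40* (288 ± 275 against 156 ± 71.2 CPM, log2 0.90, SE 0.32) were higher in 8 and 10 of 10 calves than the CTR median. These were also the contractile genes with the highest r to *MYF6* across calves.

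Of 14 genes of growth signals and breakdown, *ACVR1B*, a receptor of activin and myostatin, was at 3.96 ± 1.01 CPM in TR3 (SD, n = 9) and 2.87 ± 0.542 in CTR (SD, n = 10), with 8 of 9 above the CTR median (log2 0.62, SE 0.17, edgeR, adjusted p = 1.00). In TR2 the Wnt receptor *FZD7* (log2 0.47, SE 0.19) and *FSTL3*, which binds activin (log2 1.02, SE 0.45), were higher than in CTR. *FZD7* exceeded the CTR median in 9 of 10 TR2 calves, but *FSTL3* in only 5 of 10 (5.03 ± 7.33 against 2.20 ± 0.786 CPM, SD). In TR3 vs. TR1 *FBXO32* (log2 -1.93, SE 0.71) and *TRIM63* (log2 -1.06, SE 0.37) had negative differences, with A2052 the highest calf for both, and for *TRIM63* only 5 of 9 TR3 calves were below the TR1 median. Without A2052 the values were -0.21 (SE 0.60) and -0.04 (SE 0.25).

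None of the markers of other cells passed at an adjusted p of at most 0.05 in these 4 comparisons (edgeR), and some differed at an unadjusted p under 0.05. In TR2 vs. CTR 7 of 8 fibroblast markers were lower at that threshold, beside 3.31% of all genes (median log2 -0.45, smallest adjusted p = 0.507, edgeR). Their summed level ran from 320 to 644 CPM in TR2 against 459 to 1209 CPM in CTR. Markers too could be found only where the study had called the gene or listed it as a regulator in these calves. The 7 of 8 beside the share of all genes is therefore not independent evidence. *LUM* (lumican) was below the CTR median in 10 of 10 TR2 calves, and *VWF* of endothelium was at 49.4 ± 12.1 CPM in TR2 and 38.3 ± 5.41 CPM in CTR (SD, n = 10 each, edgeR adjusted p = 0.586). The Schwann cell marker *S100B* was at 38.8 ± 13.4 CPM in TR3 and 28.8 ± 11.6 CPM in TR1 (SD, n = 9 each, 9 of 9 above the TR1 median, edgeR adjusted p = 0.840). The adipocyte markers *FABP4* and *ADIPOQ* had log2 differences of -1.67 and -2.09 in TR3 vs. TR1 (edgeR adjusted p = 0.821 for both), with 6 of 9 calves below the TR1 median for each. Both were low, with a TR1 SD above the mean: *FABP4* at 1.61 ± 1.28 against 5.11 ± 8.33 CPM and *ADIPOQ* at 0.286 ± 0.311 against 1.17 ± 2.26 CPM. The part of these cells in the levels of *MYF6*, *MYF5* and *MYOG* was not tested.

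The share of females differed between the groups, and females and males were compared in the same model. The log2 difference, females minus males, was 0.11 (SE 0.28) for *MYOD1*, -0.04 (SE 0.22) for *MYOG* and -0.22 (SE 0.14) for *MYF6*, none called at an adjusted p of at most 0.05 (0.0309% of all genes were) or at an unadjusted p under 0.05 (6.61%, edgeR). Without A2052, a female, the values were 0.35 (SE 0.21), 0.18 (SE 0.14) and -0.26 (SE 0.16). *MYOD1* was at 83.9 ± 13.2 CPM in TR3 females (SD, n = 5) and 53.0 ± 28.8 in TR3 males (SD, n = 4), and at 66.6 ± 30.2 in CTR females (SD, n = 4) and 41.5 ± 11.8 in CTR males (SD, n = 6). In male calves alone the TR3 vs. CTR difference was 0.41 for *MYOD1* and 0.43 for *MYOG*, and the TR3 vs. TR1 difference of *MYOD1* turned to -0.17. Per year of dam age the slopes were 0.14 (SE 0.11), 0.04 (SE 0.09) and -0.04 (SE 0.06) on the log2 scale, none of which passed the test at an adjusted p of at most 0.05 (0% of all genes) or an unadjusted p under 0.05 (3.36%).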

How the data were processed

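RNA of 38 muscle biopsies was sequenced from strand-specific poly-A libraries, 1 library per calf. Per the labels and the methods of the study, the authors aligned reads with STAR (version 2.7.3a) to the bovine genome and deposited raw counts per Ensembl gene. The strand setting of the counting is not given in the sources used here, so reads of overlapping or antisense genes cannot be told apart. Counts of 27607 genes were filtered by expression (12964 kept), scaled by TMM and fitted with edgeR (version 4.0.16) on treatment group, calf sex and dam age, after a test on simulated counts. CPM and log2 CPM (prior count 2) used the same scaling. DESeq2 (version 1.42.0) gave the variance-stabilized values and an alternative test. Alternatives covered scaling, filter, covariates, robust fit, the groups compared alone, male calves alone and each calf left out. The calves are the replicates. *MYOD1*, *MYOG* and *MYF6* and all gene lists were chosen with earlier results of these data known. Genes named from a list had the 2 smallest p-values under 0.05 in a comparison. The genes named as most like each factor were the 5 most positive and 3 most negative among those with a symbol. Symbols were paired with 2880 identifiers.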

Additional observations from a re-analysis of the deposited data

Results flagged for a closer look

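In each group of calves the gap between the lowest or the highest calf and its neighbour, on the log2 scale, was set against the range of the group (Dixon's test). For *MYOD1*, *MYOG*, *MYF6* and *MYF5* in 4 groups each, 16 in all, 4 values stood apart, and chance alone marks about 1 in 20 groups. TR1 calf A2052 was the lowest of its group for *MYOD1* at 2.79 CPM and for *MYOG* at 3.21 CPM. TR3 calf A2033 was the lowest for *MYOD1* at 20.6 CPM, while its *MYOG* (65.9 CPM) was within the range of the other TR3 calves. CTR calf A2088 was the highest for *MYF6* at 195 CPM, and its *MYOG* was the lowest of the CTR calves (31.9 CPM). Values with and without A2052 stand beside the results above. Without A2088 the *MYF6* difference of TR2 vs. CTR was 0.45 on the log2 scale (SE 0.17, edgeR p = 0.0119, adjusted p = 0.517), against 0.28 (SE 0.18) with it.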

How the results depend on the processing

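Of 291 alternative values for 27 results on the 3 genes, 278 had the same direction and side of the threshold, 9 turned and 4 passed it. Those that passed were exact permutation tests without adjustment: *MYOG* in TR3, 0.43 vs. CTR and 0.82 vs. TR1, and *MYF6* 0.53 in TR2 vs. TR1 and -0.46 in TR3 vs. TR2. The same test turned *MYOD1* in TR1 vs. CTR to -0.29. Male calves alone turned *MYOG* in TR1 vs. CTR to 0.30, its dam age slope to -0.088, and *MYOD1* in TR3 vs. TR1 and TR3 vs. TR2 to -0.17 and -0.23. Fitting only the groups compared turned the latter to -0.0091. Leaving out A2052 and A2100 together, chosen after seeing the data, gave *MYOG* 0.12 in TR1 vs. CTR, 0.24 in females vs. males and -0.054 per year of dam age. Without the 2 farthest calves the *MYOG* and *MYF6* correlation was 0.0020. With each calf left out, the range was -0.076 (without A2057) to 0.35 for *MYOD1* and -0.20 to 0.10 for *MYOG* in TR1 vs. CTR, -0.11 to 0.18 and -0.025 to 0.080 for *MYOG* by sex and dam age, -0.17 to 0.0090 for its correlation with *MYF6*, and -2.68 to 0.45 for its standardized difference in TR1. The count of list genes at an unadjusted p under 0.05 in TR1 vs. CTR, 1, became 2 with library size scaling, with no filter and with DESeq2, and 3 with group alone, which also gave 2 in place of 4 in TR3. Without A2052, added after seeing the data, it was 0 for TR1 vs. CTR and 3 in place of 9 for TR3 vs. TR1. The cause of these changes was not tested. No paired analysis was possible because the labels name no block, and the replicate numbers used here only follow accession order.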
